A study of Caenorhabditis elegans with 12 samples.

Results

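The lipid-binding protein genes lbp-1 to lbp-8 of the nematode Caenorhabditis elegans were followed across genotype and age. The 8 genes were taken by name and matched to the gene identifiers of the count tables, and all 8 were found among the 46778 genes listed. RNA came from whole adult animals in 4 groups of 3 libraries. Wild type was strain N2, and the mutant was strain CF1041 with the allele daf-2(e1370), which lowers the activity of the only insulin and insulin-like growth factor receptor of the worm. Each genotype was collected at day 1 and at day 9 of adulthood, on OP50 bacteria, and animals of all 4 groups had been exposed to 50 µM FUdR, a DNA synthesis inhibitor that prevents offspring. The comparisons asked how the lbp transcripts change with age in each genotype and how they differ between genotypes at each age. The labels call the 3 libraries of a group biological repeats.

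Lipid-binding proteins of this family are small barrels with an inner cavity that holds a fatty acid or a related lipid, and they carry it through the watery space of a cell or of the body fluid. LBP-1, LBP-2 and LBP-3 have a secretion signal and act outside the cell. In worms, LBP-8 takes lipids released by the lysosomal lipase LIPL-4 to the nucleus, where they activate the nuclear hormone receptors NHR-49 and NHR-80, and extra LBP-8 lengthens life. LBP-3 leaves the intestine and carries a lipid signal of LIPL-4 to neurons, and LBP-5 is known to affect fat storage together with NHR-49.

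Total counts ran from 20322128 to 47447136 per library, and 15523 genes passed the filter on low counts and were tested. All 8 lbp genes were among them. For 7 of the 8, all 12 libraries were over the filter's limit of 0.433 CPM, and lbp-8 was over it in 8 libraries, none of them from wild type at day 9. Levels are CPM (counts scaled to a common library size, here after TMM scaling), and log2 changes are given ± SE. "Called" means an adjusted p under 0.05 by the quasi-likelihood test of edgeR, with the Benjamini-Hochberg method applied to all 15523 genes. Markers of intestine, muscle, hypodermis, neurons and germ line were all present, as in whole animals, and daf-2 day 1 replicate 3 was the library of its group that stood farthest from the other two (chi-square over degrees of freedom of 88.3 and 77.7, against 25.6 between those). In daf-2 at day 9, replicates 2 and 3 were the farthest apart (123.1, r = 0.98). They were also the deepest of that group, with 47447136 and 45563330 counts against 20991940 in replicate 1. The part of depth in the value of 123.1 was not tested.

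The 3 genes with a secretion signal form a cluster on chromosome X of WBcel235, all on the plus strand. It starts with lbp-3 (3257372 to 3258155), followed after 986 bases by lbp-1 (3259142 to 3259812) and after another 797 bases by lbp-2 (3260610 to 3261470), with no annotated gene between them. The genes lbp-6 (6728296 to 6729376) and lbp-5 (6731267 to 6732276) are neighbours on the minus strand of chromosome I, 1890 bases apart, with the adenine nucleotide translocase gene ant-1.2 between them. On chromosome V, lbp-4 (7820578 to 7821477) stands alone, and lbp-7 (13879552 to 13880213) and lbp-8 (13890773 to 13891364) are on the plus strand with 10559 bases and 3 other protein-coding genes between them. The longest annotated proteins of lbp-1, lbp-2 and lbp-3 have 159, 161 and 165 residues. Those of lbp-4 to lbp-8 are shorter, with 145, 136, 135, 137 and 137. The libraries did not mark strand, and 35 of the 527 exonic bases of lbp-6 (6.64%) are shared with mec-6 on the opposite strand. The mec-6 gene had at most 2.74 ± 0.304 CPM in any group, and the lowest lbp-6 library had 45.75 CPM.

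The lbp genes spanned a wide range of levels, and among the 8 lbp-2 led in every group. To compare genes, CPM were divided by the exonic length in kilobases. In wild type at day 1 the order was lbp-2 (644 ± 106 CPM per kb, SD, n = 3), lbp-6 (261 ± 42.7), lbp-1 (195 ± 59.2), lbp-3 (125 ± 14.8), lbp-5 (77.3 ± 7.28), lbp-4 (71.9 ± 3.73), lbp-7 (42.8 ± 2.03) and lbp-8 (4.31 ± 2.8). Libraries of neighbours in this order overlapped for lbp-6 and lbp-1 and for lbp-5 and lbp-4. At day 9 in wild type lbp-6 stood in the fourth place, after lbp-1 (215 ± 25.5) and lbp-3 (163 ± 32.1), whose libraries overlapped. In daf-2 at day 1 the first 4 places were held by lbp-2 (840 ± 172), lbp-6 (581 ± 76.7), lbp-1 (319 ± 91.6) and lbp-3 (137 ± 34), with no overlap among these libraries, while lbp-4, lbp-5 and lbp-7 (69.4 ± 7.41, 66.8 ± 29.9 and 50.3 ± 11.2) overlapped. At day 9 in daf-2, lbp-2 (1230 ± 223) was followed by lbp-1 (292 ± 21.9), and lbp-3 and lbp-6 (123 ± 18.9 and 120 ± 4.45) overlapped.

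**Figure D1:**
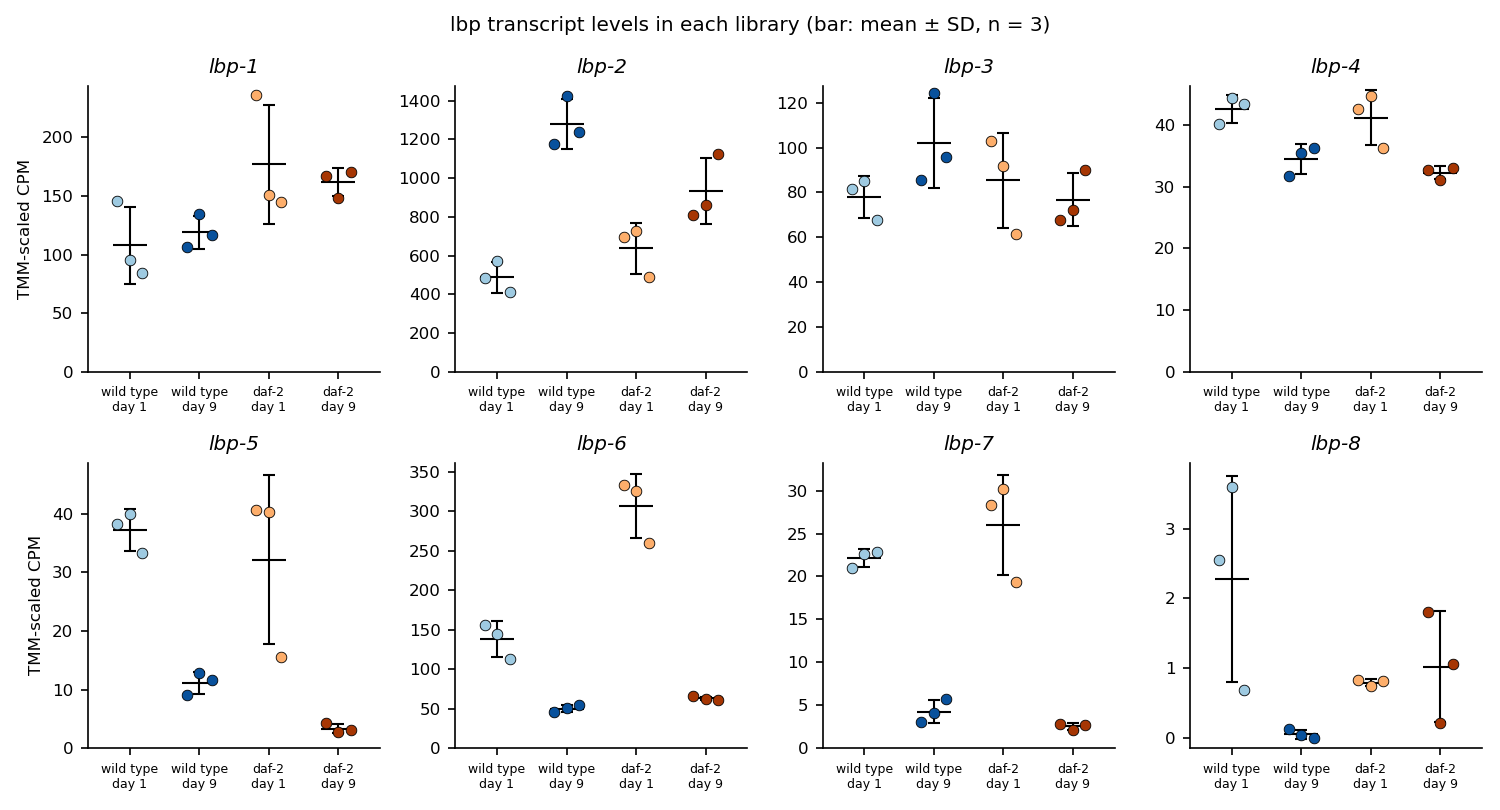
TMM-scaled CPM of each lbp gene in each of the 12 libraries, with 1 panel per gene and its own linear axis. Points are libraries, and bars give the mean and SD of 3 libraries. The lbp-2 values at day 9 lie above those at day 1 in each genotype, and lbp-5, lbp-6 and lbp-7 lie below.

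The share of lbp-2 among the 8 genes was larger at day 9 than at day 1 in both genotypes. In the summed level per kb of the 8 genes, lbp-2 made up 45.3% in young and 75% in old wild type. In daf-2 these shares were 40.6% and 66.8%. For lbp-6 the wild-type shares were 18.3% and 4.26%, and the daf-2 ones 28.4% and 6.63%. The summed level was 1420 ± 192 CPM per kb in young wild type and 2250 ± 237 in old (SD, n = 3), and the ages did not overlap. In daf-2 it was 2060 ± 384 and 1830 ± 251 CPM per kb, with overlapping libraries. As a share of raw counts, without TMM or length scaling, the 8 genes took 0.0801 ± 0.00858% and 0.18 ± 0.0206% in wild type. The daf-2 shares, 0.116 ± 0.0191% and 0.144 ± 0.0115%, differ between the ages in the opposite direction to the scaled level, so no direction is given for the daf-2 total.

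**Figure D2:**
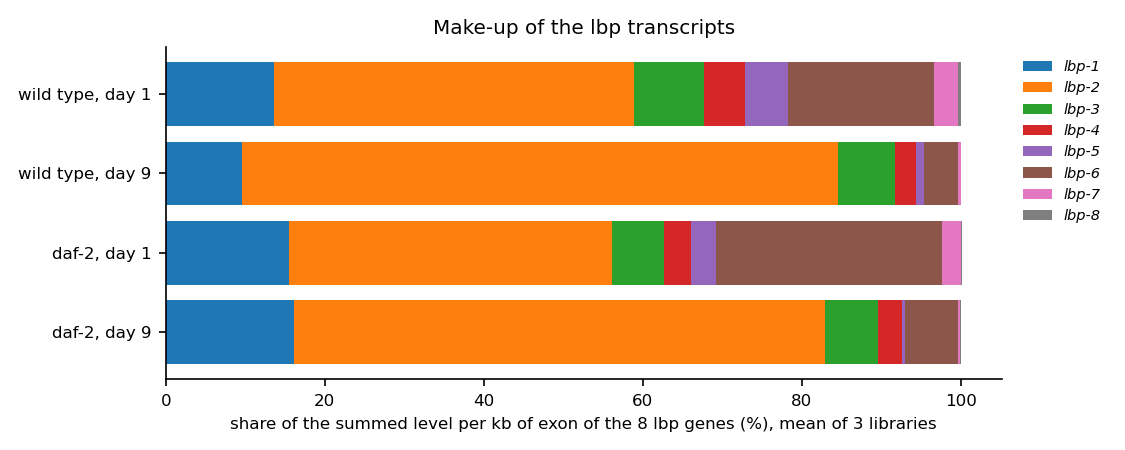
Share of each lbp gene in the summed CPM per kb of exon of the 8 genes (horizontal axis, percent, mean of 3 libraries) in each group. The lbp-2 segment is 45.3% and 75% wide in wild type at day 1 and day 9, and 40.6% and 66.8% in daf-2.

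Between day 1 and day 9 in wild type, 1 lbp gene rose and 5 fell, against 31.2% of all tested genes higher and 25.6% lower. The median log2 change of the 8 genes was -0.88, beside 0.09 over all tested genes. The gene that rose was lbp-2 of the X-linked cluster, and the 5 that fell were the 5 genes on autosomes, lbp-4 to lbp-8. Libraries of the 2 ages did not overlap for 2 higher and 5 lower genes, against 35.9% and 28.7% of all tested genes. The summed levels of intestinal, muscle and hypodermal markers were lower at day 9 too. The summed level of 8 intestinal markers was 2290 to 2800 CPM at day 1 and 1290 to 1390 at day 9, and that of 8 muscle markers 1480 to 2580 and 361 to 434 CPM. The 8 hypodermal markers summed to 1320 to 1750 and 273 to 307 CPM. Abundant genes weigh most in these sums. The median log2 change of the tested markers was -0.49 for intestine, -2.14 for muscle and -0.38 for hypodermis. Of tested markers, 3 of 8 intestinal ones were called as lower and 1 as higher, 6 of 8 muscle and 3 of 6 hypodermal ones as lower, 7 of 8 sperm and 5 of 8 neuronal ones as higher, and 5 of 8 of oocytes and germ line as lower and 1 as higher. Of 9 listed intestinal markers 8 were found by name, and 6 of 8 hypodermal ones passed the filter on low counts. No marker that was found was at 0 in all libraries. In whole animals fewer cells of a type and less RNA per cell cannot be told apart, and the part of tissue make-up in the lbp changes was not tested.

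In the X-linked cluster, lbp-2 had 486.4, 571 and 409.9 CPM in young wild-type animals. Old ones had 1178, 1425 and 1238 CPM. Every old library was above every young one, and the log2 change was 1.39 ± 0.19 (2.62-fold, adjusted p = 7.4e-05). For lbp-1 the young libraries held 145.8, 95.4 and 84.1 CPM, the old ones 106.5, 134.5 and 116.6 CPM. These overlapped and the gene was not called (0.14 ± 0.21, 95% confidence interval -0.33 to 0.60, adjusted p = 0.6). For lbp-3, whose protein carries a fat signal from intestine to neurons, young libraries had 81.3, 85.1 and 67.6 CPM and old libraries 85.7, 124.3 and 95.9 CPM. The groups just missed overlapping, and the difference was not called (0.39 ± 0.19, interval -0.03 to 0.80, adjusted p = 0.1). Upper-quartile scaling, which moved the median of all genes from 0.09 to 0.26, called it at 0.56 (adjusted p = 0.0231).

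All 5 autosomal genes were lower in old wild-type animals, by amounts that ranged widely. The smallest fall was that of lbp-4, from 40.1, 44.4 and 43.4 CPM to 31.8, 35.5 and 36.3 CPM (-0.30 ± 0.10, adjusted p = 0.023). That call was lost with upper-quartile scaling (-0.13, adjusted p = 0.245) and on leaving out replicate 2 or 3 of young or replicate 1 of old wild type (adjusted p = 0.0622, 0.0551 and 0.102 in turn). The calls of the other 4 falling genes held in each setting in which they were tested.

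The fat-storage gene lbp-5 had 38.3, 40 and 33.3 CPM when young but 9.08, 12.8 and 11.6 CPM when old, a 3.33-fold fall (-1.74 ± 0.30, adjusted p = 0.00048). Its neighbour lbp-6 went from 156.3, 144.1 and 112.7 CPM to 45.8, 50.6 and 54.3 CPM, a 2.74-fold fall (-1.45 ± 0.13, adjusted p = 4.8e-06). For lbp-7 the values were 20.9, 22.6 and 22.9 CPM and then 3.04, 4.10 and 5.70 CPM, a 5.17-fold fall (-2.37 ± 0.23, adjusted p = 7.7e-06). In each of the 3 genes the lowest young library was well above the highest old one.

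The lysosomal messenger lbp-8 was the scarcest member. Its raw counts were 49, 60 and 20 in young wild-type libraries but 3, 1 and 0 in old ones, or 2.55, 3.598 and 0.684 CPM against 0.123, 0.0383 and 0 CPM. A count of 0 in the last library allows up to 3 counts. The groups did not overlap, and the gene was called as lower (adjusted p = 0.00087). From the summed counts of 129 and 4, scaled by library size, its level was 36.8 times higher at day 1 (exact 95% interval 14 to 137). The interval covers counting error only, and the fitted log2 change of -5.26 ± 1.0 depends on how near-zero counts are handled. It ranged from -6.52 to -4.74 when a library was left out, with -6.52 on leaving out wild-type day 9 replicate 1, and stayed called (adjusted p at most 0.00586).

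In daf-2, 1 lbp gene was called as higher at day 9 than at day 1 and 4 as lower, against 21.9% of all tested genes higher and 21.5% lower. The median log2 change was -0.25, beside 0.01 over all genes. Again lbp-2 was the gene that rose, and lbp-4, lbp-5, lbp-6 and lbp-7 fell. The falls of lbp-5, lbp-6 and lbp-7 were 4.85-fold to 10.2-fold. The summed levels of intestinal, muscle and hypodermal markers were lower here as well. The 8 intestinal markers summed to 1400 to 2320 CPM at day 1 and 165 to 477 at day 9. The 8 muscle markers summed to 1990 to 3880 and 259 to 499 CPM. The 8 hypodermal markers summed to 1020 to 1890 and 245 to 299 CPM. The median log2 change of the tested markers was -2.01 for intestine, -2.65 for muscle and -0.28 for hypodermis. Of tested markers, 6 of 8 intestinal, 6 of 8 muscle, 2 of 6 hypodermal and 1 of 8 of oocytes and germ line were called as lower. In contrast, 5 of 8 sperm and 2 of 8 neuronal markers were called as higher. Their sums were 30.3 to 36.8 and 101 to 152 CPM for sperm and 263 to 288 and 319 to 344 CPM for neurons. The median log2 change was 1.89 for sperm markers but -0.17 for neuronal ones, opposite in direction to the neuronal sum. The part of these differences in the lbp values was not tested.

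For lbp-2 the daf-2 libraries held 696.3, 727.9 and 488.2 CPM when young but 810.6, 861.3 and 1126 CPM when old. The ages did not overlap, and the log2 change was 0.55 ± 0.18 (1.46-fold, adjusted p = 0.03). It was no longer called when daf-2 day 1 replicate 3 (0.35, adjusted p = 0.141) or daf-2 day 9 replicate 3 (0.39, adjusted p = 0.125) was left out, or when the 6 daf-2 libraries were fitted alone (0.56, adjusted p = 0.0537). The other genes of the cluster were not called, at -0.13 ± 0.21 for lbp-1 (interval -0.59 to 0.33, adjusted p = 0.65) and -0.15 ± 0.19 for lbp-3 (interval -0.57 to 0.26, adjusted p = 0.54). Their libraries overlapped between the ages, with lbp-1 at 145.1 to 235.8 CPM at day 1 and 148 to 170.7 CPM at day 9, and lbp-3 at 61.7 to 102.7 and 67.7 to 90.0 CPM.

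Among the autosomal genes, lbp-5 fell from 40.6, 40.3 and 15.5 CPM to 4.24, 2.79 and 3.07 CPM, a 9.65-fold fall (-3.27 ± 0.33, adjusted p = 1.3e-05). The third young library, replicate 3, was far below the other two and still above every old library. The fall of lbp-6 was 4.85-fold, from 333.2, 325.7 and 259.7 CPM to 65.8, 62.1 and 61.4 CPM (-2.28 ± 0.14, adjusted p = 3.9e-07). That of lbp-7 was 10.2-fold, from 28.3, 30.2 and 19.4 CPM to 2.84, 2.11 and 2.74 CPM (-3.35 ± 0.24, adjusted p = 1.5e-06). All 3 calls held in each of the alternatives. The change of lbp-4 was far smaller, from 36.25 to 44.7 CPM at day 1 to 31.1 to 33.0 CPM at day 9 (-0.35 ± 0.10, adjusted p = 0.015). It lost its call with upper-quartile scaling (-0.22, adjusted p = 0.0758) and without daf-2 day 1 replicate 2 (adjusted p = 0.0616) or daf-2 day 9 replicate 2 (adjusted p = 0.056).

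In daf-2 the lbp-8 transcript was still present at day 9. Young libraries held 20, 14 and 19 counts and old ones 45, 12 and 51, or 0.825, 0.737 and 0.814 CPM and then 1.80, 0.216 and 1.06 CPM. Old libraries lay on either side of the young ones, and the gene was not called (0.31 ± 0.72, interval -1.25 to 1.88, adjusted p = 0.75). Summed counts of 53 and 108 gave a ratio of day 9 to day 1 of 1.05 (exact 95% interval 0.752 to 1.49, counting error only).

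The interaction, for which the wild-type log2 change was subtracted from the daf-2 one, was called for 2 lbp genes. It was higher for 1 and lower for 1, against 0.573% and 4.72% of all tested genes. For lbp-8 it was 5.58 ± 1.26 (95% interval 2.84 to 8.31, adjusted p = 0.026). For lbp-6 it was -0.82 ± 0.19 (adjusted p = 0.025). Of the others, lbp-5 (-1.53 ± 0.43, adjusted p = 0.057), lbp-2 (-0.84 ± 0.26, adjusted p = 0.08) and lbp-7 (-0.98 ± 0.32, adjusted p = 0.092) were not called, nor were lbp-1, lbp-3 and lbp-4 (adjusted p = 0.62, 0.24 and 0.87).

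**Figure D3:**
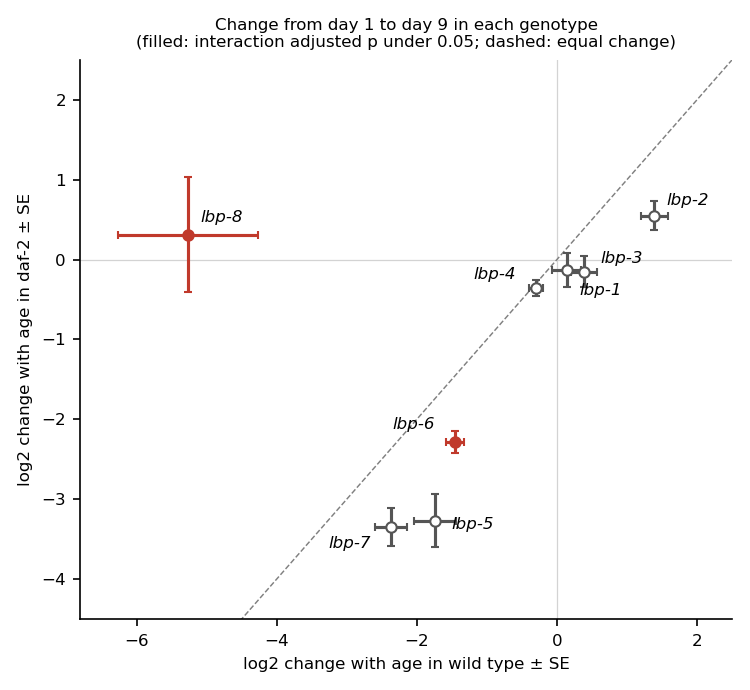
Log2 change from day 1 to day 9 in wild type (horizontal axis) and in daf-2 (vertical axis) for each lbp gene, with SE bars. Filled points have an interaction adjusted p under 0.05, and the dashed line marks equal change. The lbp-8 point stands far left of the line at -5.26 and 0.31, with a fitted wild-type change that depends on near-zero counts.

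Both interaction calls could be ended by leaving out 1 library. For lbp-8 these were wild-type day 1 replicate 2 (adjusted p = 0.0594), wild-type day 9 replicates 2 (0.0772) and 3 (0.0692), daf-2 day 1 replicates 1 (0.0598) and 2 (0.0572) and daf-2 day 9 replicate 1 (0.0544), with values of 4.94 (without daf-2 day 9 replicate 1) to 6.84 (without wild-type day 9 replicate 1) over all 12 omissions. For lbp-6 they were wild-type day 9 replicates 2 (0.0638) and 3 (0.07), daf-2 day 1 replicates 1 (0.0639) and 2 (0.0621) and daf-2 day 9 replicate 2 (0.0596), with values of -0.93 to -0.70. Without daf-2 day 1 replicate 3, 5 lbp genes were called, with lbp-5 at -1.86 (adjusted p = 0.00188), lbp-7 at -1.15 (0.04) and lbp-2 at -0.99 (0.0266). DESeq2 called 4, adding lbp-5 (-1.47, adjusted p = 0.0121) and lbp-2 (-0.78, adjusted p = 0.0403). For lbp-2 upper-quartile scaling (-0.89, adjusted p = 0.0462) and the omission of daf-2 day 9 replicate 3 (adjusted p = 0.0464) also gave a call, as did no filter (adjusted p = 0.0363) and a minimum count of 50 (adjusted p = 0.0489) for lbp-5.

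At day 1, 2 lbp genes were called as higher in daf-2 than in wild type and 0 as lower, against 10.3% and 5.06% of all tested genes. The median log2 difference was 0.18, beside 0.04 over all genes. The clearest was lbp-6, with 333.2, 325.7 and 259.7 CPM in daf-2 and 156.3, 144.1 and 112.7 CPM in wild type. Every daf-2 library was above every wild-type library, a 2.22-fold difference (1.15 ± 0.13, adjusted p = 0.00015) that was called in each alternative. For lbp-1, daf-2 libraries had 235.8, 150.5 and 145.1 CPM against 145.8, 95.4 and 84.1 CPM (0.71 ± 0.21, adjusted p = 0.043). These ranges overlapped slightly. The call was ended by 9 of the 12 omissions of a library (adjusted p up to 0.191), and by fitting the 6 young libraries alone (0.72, adjusted p = 0.112). The omissions that ended it were wild-type day 1 replicate 2 or 3, daf-2 day 1 replicate 1, and each of the 6 day 9 libraries. Of tested markers, 2 of 8 intestinal and 3 of 8 neuronal ones were called as higher in young daf-2. Lower were 1 of 6 hypodermal ones and 1 of 8 of oocytes and germ line. The median log2 difference of intestinal markers was 0.22, opposite in direction to their sum (1400 to 2320 CPM in daf-2, 2290 to 2800 in wild type). The part of these differences in the lbp values was not tested.

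The other young differences were not called. They were 0.38 ± 0.18 for lbp-2 (adjusted p = 0.17), 0.13 ± 0.19 for lbp-3 (adjusted p = 0.65), -0.05 ± 0.10 for lbp-4 (adjusted p = 0.75), -0.21 ± 0.29 for lbp-5 (adjusted p = 0.63) and 0.23 ± 0.22 for lbp-7 (adjusted p = 0.47). The counts of lbp-8 summed to 53 in young daf-2 and 129 in young wild type (-1.49 ± 0.72, adjusted p = 0.17). Wild-type replicate 3, with 0.684 CPM, was below all 3 daf-2 libraries, while the other wild-type libraries were above them.

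**Figure D4:**
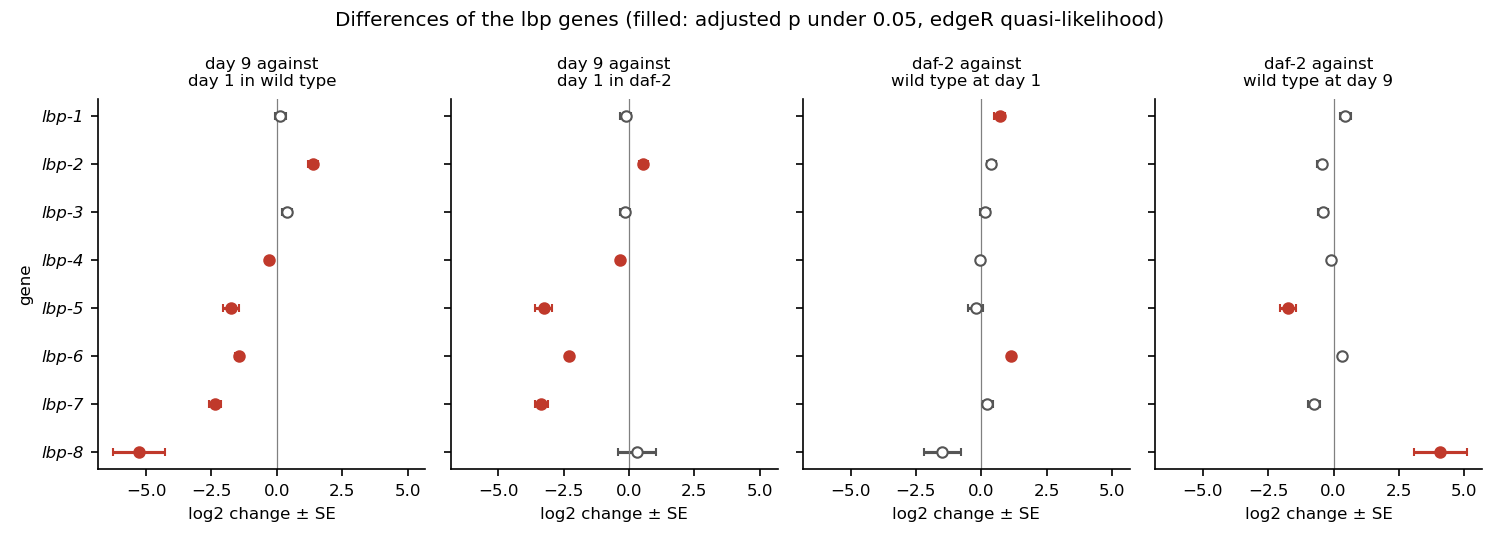
Log2 change ± SE of the 8 lbp genes in each of the 4 comparisons (horizontal axis, same scale in all panels), with called genes filled. The 2 ageing panels hold most of the called genes, and lbp-6 at 1.15 and lbp-1 at 0.71 are the 2 called in young animals.

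At day 9, 1 lbp gene was called as higher in daf-2 and 1 as lower, against 4.54% and 6.26% of all tested genes. The median log2 difference was -0.25, beside 0.01 over all genes. The gene called as lower was lbp-5, with 4.24, 2.79 and 3.07 CPM in daf-2 and 9.08, 12.8 and 11.6 CPM in wild type. The genotypes did not overlap, and the difference was 3.35-fold (-1.74 ± 0.32, adjusted p = 0.0033), called in each alternative. The summed level of intestinal markers was lower in old daf-2 than in old wild type (165 to 477 against 1290 to 1390 CPM). Of 8 tested, 3 were called as lower and 1 as higher, with a median log2 difference of -0.78. Their part in the differences of lbp-5 and of lbp-8, the gene called as higher, was not tested.

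The gene called as higher was lbp-8, with counts of 45, 12 and 51 in old daf-2 and 3, 1 and 0 in old wild type. The libraries did not overlap, and the summed counts of 108 and 4 gave a level 15.6 times higher in daf-2 (exact 95% interval 5.92 to 58.2, counting error only, adjusted p = 0.022 in edgeR's test). The fitted log2 difference was 4.09 ± 1.02. Leaving out wild-type day 9 replicate 2 (3.90, adjusted p = 0.0927) or 3 (3.55, adjusted p = 0.0786) or daf-2 day 9 replicate 1 (3.45, adjusted p = 0.0667) ended the call, and leaving out wild-type day 9 replicate 1 gave 5.34, the upper end of the range over the 12 omissions. In a fit of only the old libraries, and with a minimum count of 50, the gene did not pass the filter.

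Of the 6 other genes, lbp-7 came closest to a call, with 2.84, 2.11 and 2.74 CPM in old daf-2 and 3.04, 4.10 and 5.70 CPM in old wild type. The genotypes did not overlap (-0.75 ± 0.24, adjusted p = 0.064), and DESeq2 called it (-0.76, adjusted p = 0.0225). Leaving out wild-type day 9 replicate 1 (-0.94, adjusted p = 0.0286) or daf-2 day 1 replicate 3 (-0.78, adjusted p = 0.0352) also gave a call. Nor did the genotypes overlap for lbp-1 (0.44 ± 0.21), lbp-2 (-0.46 ± 0.18) and lbp-6 (0.33 ± 0.13), none of them called (adjusted p = 0.22, 0.14 and 0.14). In all, 3 lbp genes had higher and 3 lower libraries without overlap, against 20.1% and 17.2% of all tested genes. With the 6 old libraries paired by replicate number in a fit of their own, lbp-1 (0.44, adjusted p = 0.0383) and lbp-2 (-0.47, adjusted p = 0.0389) were called. The same fit without pairs called lbp-1 (adjusted p = 0.0326) and lbp-6 (0.042). Neither lbp-3 (-0.41 ± 0.19, adjusted p = 0.2) nor lbp-4 (-0.10 ± 0.10, adjusted p = 0.6) was called.

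The family holds a ninth gene, lbp-9 (chromosome V, 2068449 to 2069142), outside the 8 chosen. Its mean was 409 ± 73.5 CPM in young and 208 ± 14.2 CPM in old wild type (SD, n = 3; -0.97 ± 0.12, adjusted p = 4e-05). In daf-2 it was 382 ± 12.6 and 218 ± 6 CPM (-0.81 ± 0.12, adjusted p = 0.00024). It did not differ by a called amount between genotypes at either age (adjusted p = 0.58 and 0.79). Per kb its level was 725 ± 130 and 369 ± 25.2 CPM in young and old wild type and 677 ± 22.3 and 386 ± 10.6 CPM in daf-2. In young animals of each genotype these libraries overlapped with those of lbp-2, and in young wild type the lbp-9 mean was the higher. With lbp-9 counted in, lbp-2 made up 29.9% and 64.4% of the 9 genes in young and old wild type and 30.5% and 55.2% in daf-2.

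Other genes of lipid carriage and signalling were read from the same fit, where 31.2% of all tested genes rose and 25.6% fell with age in wild type and 21.9% rose and 21.5% fell in daf-2. The far genes encode another family of nematode fatty acid and retinol carriers, many of them secreted. Of 8 far genes 5 rose and 0 fell with age in wild type, and 3 rose and 3 fell in daf-2. Only 1 rose in daf-2 without daf-2 day 1 replicate 1 or daf-2 day 9 replicate 3. The gene far-3 rose in wild type (4.02 ± 0.37, adjusted p = 4.6e-06) and fell in daf-2 (-1.58 ± 0.33, adjusted p = 0.0025), where the libraries of the ages overlapped, and far-7 rose in both (2.34 ± 0.26 and 1.44 ± 0.23). Of 6 genes of acyl-CoA binding proteins, which hold activated fatty acids inside the cell, 1 rose and 2 fell in wild type (2 and 1 with upper-quartile scaling) and 0 rose and 4 fell in daf-2. In wild type 0 rose without wild-type day 9 replicate 2 and 2 without daf-2 day 9 replicate 2 or 3, and 1 fell without young wild-type replicate 3 or old wild-type replicate 2 or 3. Among them acbp-1 fell in both (-0.98 ± 0.12 and -1.47 ± 0.12).

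In the list of lysosomal lipid signalling, 2 of 10 genes rose and 3 fell with age in wild type, and 1 rose and 5 fell in daf-2 (3 without daf-2 day 1 replicate 1). The lipase gene lipl-4, whose product acts ahead of LBP-8 and LBP-3, was scarce, at 0.331 ± 0.212 and 1.95 ± 0.469 CPM in young and old wild type (2.56 ± 0.55, adjusted p = 0.0019). In daf-2 it had 1.69 ± 0.988 and 3.95 ± 0.958 CPM (1.24 ± 0.45, adjusted p = 0.043). That call, the 1 rise of the list in daf-2, was lost without daf-2 day 1 replicate 2 or 3 or any 1 of the 6 day 9 libraries. The gene was called as higher in young daf-2 than in young wild type (2.35 ± 0.56, adjusted p = 0.015), with overlapping libraries. Another lipase gene of the family, lipl-5, fell with age in both genotypes (-1.79 ± 0.37 and -2.50 ± 0.37) and was higher in daf-2 at both ages (2.46 ± 0.37 and 1.75 ± 0.37). The gene hlh-30, a regulator of lysosomal genes, rose in wild type (0.94 ± 0.13, adjusted p = 1e-04) and was lower in old daf-2 than in old wild type (-0.64 ± 0.13, adjusted p = 0.0069).

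Of 13 NHR-49 partners and targets, 2 rose and 5 fell with age in wild type and 1 rose and 4 fell in daf-2. In wild type 1 rose without young replicate 3 or old replicate 1 of that genotype. The receptor gene nhr-49, given for its tie to the lbp proteins and not by the rule, was called in none of the 5 comparisons (adjusted p = 0.13 to 0.37). The desaturase gene fat-7 fell in wild type (-3.03 ± 0.21) and in daf-2 (-5.58 ± 0.26), and fat-5 rose in wild type (1.09 ± 0.15). The acyl-CoA synthetase gene acs-2, a fasting-responsive NHR-49 target, rose in daf-2 (2.42 ± 0.62, adjusted p = 0.0078). In young daf-2 3 of the 13 were higher and 1 lower than in wild type (2 lower without wild-type day 1 replicate 3), against 10.3% and 5.06% of all tested genes. In old daf-2 4 were higher and 2 lower, against 4.54% and 6.26%. The count of higher genes was 2 without wild-type day 9 replicate 1 or 3 or daf-2 day 9 replicate 1, and 1 without wild-type day 9 replicate 2 or daf-2 day 9 replicate 3. That of lower genes was 1 without any 1 of the wild-type day 9 libraries or daf-2 day 9 replicate 1 or 2. The gene hacd-1 was higher in daf-2 at both ages (2.71 ± 0.23 and 3.13 ± 0.23), and fat-7 was lower at both (-2.11 ± 0.20 and -4.66 ± 0.26).

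Acyl-CoA synthetases activate fatty acids for use, and 10 of 21 rose and 3 fell with age in wild type (5 fell without daf-2 day 1 replicate 3), while 5 rose and 5 fell in daf-2 (9 rose with upper-quartile scaling). The list of yolk lipoproteins and their transport, the route by which intestinal lipid reaches oocytes, had 0 of 8 higher and 5 lower in wild type and 0 higher and 6 lower in daf-2. Its vit-1 gene changed by -4.83 ± 0.35 and -4.37 ± 0.34, and reads of near-identical yolk genes may be split among copies. In young daf-2 the far, acyl-CoA binding, lysosomal and synthetase lists had 2, 2, 3 and 6 genes higher and 0 lower in each, and the yolk list 0 higher and 1 lower, against 10.3% and 5.06% of all tested genes. Over the omissions of a library the higher counts ran from 2 to 3, 1 to 2, 1 to 4 and 2 to 7. The acyl-CoA binding count was 1 without wild-type day 1 replicate 3 or daf-2 day 1 replicate 1 or 2, the lysosomal count 1 without daf-2 day 1 replicate 1, and the synthetase count 2 without wild-type day 1 replicate 2 and 3 without wild-type day 1 replicate 3 or daf-2 day 1 replicate 1. A lower gene appeared in the acyl-CoA binding list without wild-type day 1 replicate 1 and in the synthetase list without wild-type day 1 replicate 3 or daf-2 day 1 replicate 3. The yolk call was kept in the omission of daf-2 day 1 replicate 3 and of daf-2 day 9 replicate 2 and lost in the other 10.

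In old daf-2 the far list had 1 gene higher and 4 lower, against 4.54% and 6.26% of all tested genes, with 1 and 3 to 4 over the omissions. The acyl-CoA binding, lysosomal, synthetase and yolk lists had 0, 2, 2 and 0 higher and 1, 2, 4 and 1 lower. Over the omissions the higher counts ran from 0 to 0, 1 to 3, 0 to 2 and 0 to 1, and the lower ones from 0 to 1, 2 to 2, 1 to 5 and 1 to 1. Each of the 6 day 9 libraries moved the synthetase counts by over 1.5 times when left out, as did wild-type day 1 replicate 2 and daf-2 day 1 replicates 1 and 2. The acyl-CoA binding call was lost without replicate 1 or 2 of either old group, the lysosomal count of higher genes was 1 without any 1 of the old libraries but daf-2 day 9 replicate 2, and a higher yolk gene appeared without that replicate.

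**Figure D5:**
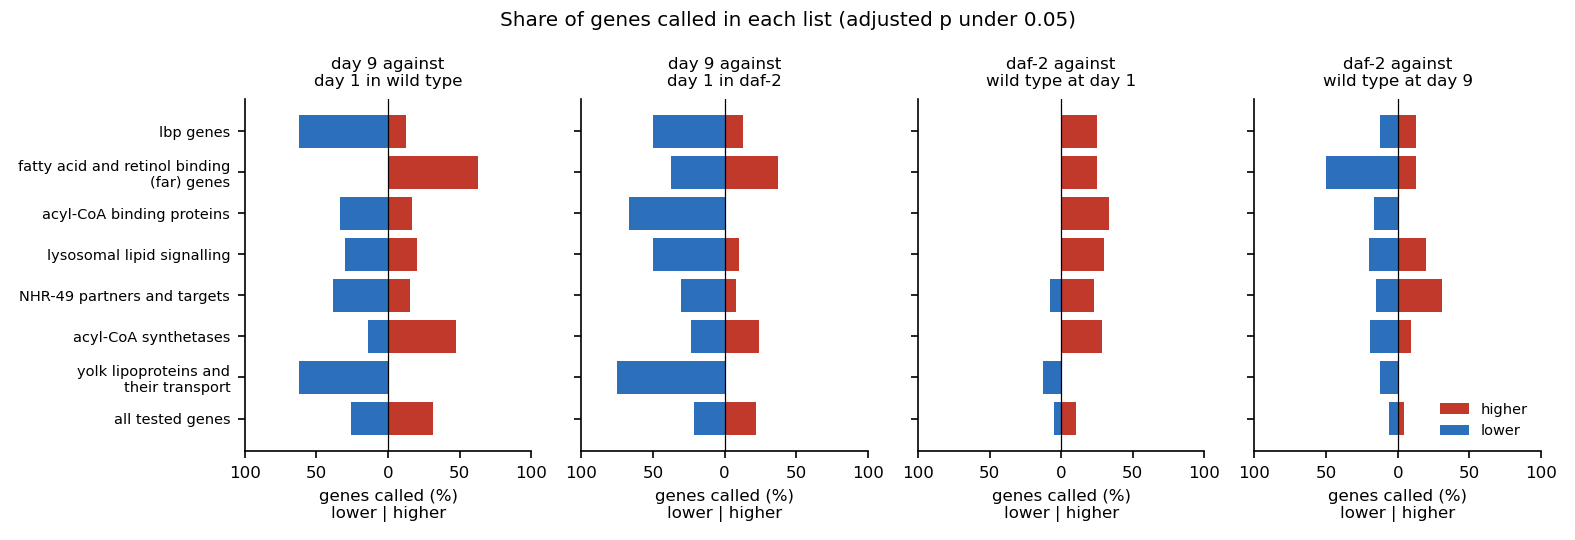
Percentage of tested genes called as higher (right, red) or lower (left, blue) in each list and in each comparison, with the lbp genes in the first row and all tested genes in the last. In wild type with age the lbp row extends mostly to the left (5 of 8 lower) and the far row only to the right (5 of 8 higher).

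As a description over the 12 libraries, which share the age and genotype differences given above, Pearson's r of log2 CPM was 0.93 between lbp-5 and lbp-7, 0.93 between lbp-4 and lbp-5 and 0.89 between lbp-6 and lbp-7. It was lower between the neighbours lbp-5 and lbp-6 (0.72), and for lbp-8 with the other autosomal genes it ran from 0.31 (lbp-5) to 0.53 (lbp-6). The X-linked neighbours lbp-1 and lbp-2 had an r of 0.16, and lbp-2 and lbp-3 had 0.64. Between lbp-2 and the autosomal genes r ran from -0.58 to -0.75. Among 8635 tested genes with a gene name, those most like lbp-2 were far-6 (r = 0.985), spp-15 (0.979) and endu-1 (0.968). For lbp-6 they were fard-1 (0.989), hsp-25 (0.986) and gpdh-2 (0.98), and for lbp-7 they were ugt-47 (0.99), ept-1 (0.987) and col-155 (0.985). The pattern of lbp-5 was nearest to cah-5 (0.982), pud-4 (0.981) and cln-3.1 (0.97), and that of lbp-4 to dnc-3 (0.955), nas-20 (0.954) and rps-14 (0.952). The nearest genes to lbp-1, lbp-3 and lbp-8 were less alike, with ife-4 at 0.923, glo-3 at 0.885 and taf-9 at 0.89.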

How the data were processed

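The authors deposited whole-number counts per gene and library, and these were treated as unnormalized. Their totals were unequal, which alone does not show that no scaling was applied. Whether the whole numbers are rounded estimates is unstated. The submitters' processing notes name WBcel235, STAR 2.7.0e, DESeq2 1.22.2 and RSEM 1.3.1 without their roles. Handling of reads that match more than 1 gene is unstated. The libraries were unstranded, per the labels' protocols. Gene identifiers were matched to Ensembl release 115 for WBcel235, which held 46603 of the 46778 genes, and exonic length is the union of a gene's exons. No listed row failed to name a gene.

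The test was run in edgeR 4.0.16 under R 4.3.3 (TMM scaling, minimum count 10, 1 fit of 4 group means over 12 libraries, quasi-likelihood test), with adjustment over 15523 genes by the Benjamini-Hochberg method. The SE is the log2 change divided by the square root of F, and intervals are at 95%. Simulated counts with known changes between day 1 and day 9 in wild type were used to check the code. In that comparison 62% of 2-fold and 95% of 4-fold changes were recovered, and recovery in the other comparisons was not simulated. A difference that was not called can therefore be a missed one. Replicates of a group were separate libraries, with r of 0.977 to 0.991. Alternatives were RLE and upper-quartile scaling, DESeq2 1.42.0, no filter, minimum count 50, a replicate block, fits of 6 libraries and omission of each library. Same-numbered libraries deviated together in every pair of only 1 comparison, daf-2 against wild type at day 9 (correlations of 0.36, 0.14 and 0.58). That fit was also run with pairs. Genes eligible for naming were the lbp genes, the 3 called genes of smallest p in each of 6 lists and comparison, and the 3 genes most like each lbp gene. Only some of these are printed. Some list genes are also given in comparisons where they were not among the 3 of smallest p. Members and lists were chosen with earlier results of these data known.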

Additional observations from a re-analysis of the deposited data

Results flagged for a closer look

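For 2 lbp genes the change with age differed between wild type and daf-2 by the interaction test. For lbp-8 the daf-2 log2 change exceeded the wild-type one by 5.58 (edgeR's quasi-likelihood test, adjusted p = 0.026), and rests on 3, 1 and 0 counts in the old wild-type libraries. The difference of lbp-6 was -0.82 (adjusted p = 0.025), with every old library below every young one in each genotype. No cause was tested for either.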

How the results depend on the processing

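Of the settings other than the omission of a library, those that moved the count of lbp genes called in either direction by more than 1.5 times were the fit of only the 6 young libraries for genotype at day 1 (1 in place of 2), the minimum count of 50 for genotype at day 9 (1 in place of 2, since lbp-8 was not tested) and DESeq2 for the interaction (4 in place of 2). By direction, upper-quartile scaling gave 2 higher with age in wild type and 2 lower for the interaction, in place of 1 and 1. The fits of 6 libraries gave 0 higher with age in daf-2, 1 at day 1 and 2 at day 9, in place of 1, 2 and 1. DESeq2 gave 2 lower at day 9 and 3 lower for the interaction, the minimum count of 50 gave 0 higher at day 9 and 0 higher and 2 lower for the interaction, no filter gave 2 lower for the interaction and the paired fit of day 9 gave 2 lower, each in place of 1. Counts over all genes moved as much at day 1 between genotypes, where 786 genes were lower: 1206 with RLE scaling and 1669 with DESeq2, and 924 higher and 246 lower with only the 6 libraries (1600 higher with all 12). At day 9 between genotypes 1150 were higher with only 6 libraries, against 704. Pairing those 6 by replicate number, an alternative added after seeing the data, gave 1420 higher and 2077 lower (971 lower in the fit of all 12). For the interaction DESeq2 gave 481 higher and 1155 lower and the minimum count of 50 gave 168 higher, against 89 and 732. With upper-quartile scaling the split with age was 5849 higher and 2967 lower in wild type, against 4848 and 3970. In daf-2 it was 4351 and 2602, against 3395 and 3330. This scaling moved the median of all genes from 0.01 to 0.14 in daf-2. The causes were not tested.

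When each library was left out in turn, the called lbp genes numbered 5 to 6 with age in wild type, 4 to 5 in daf-2, 1 to 2 between genotypes at day 1, 1 to 3 at day 9 and 0 to 5 for the interaction. Over all genes, 4060 to 4973 were higher and 3329 to 4307 lower with age in wild type, and 2552 to 3537 and 2640 to 3494 in daf-2. Between genotypes, 879 to 2044 were higher and 239 to 1156 lower at day 1, and 399 to 810 and 622 to 1178 at day 9. The interaction gave 29 to 233 higher and 404 to 1097 lower.

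Among the lbp genes and lbp-9, only differences that were not called changed sign or reached 0. For lbp-4 the interaction was 0.01 with RLE scaling and with DESeq2. When a library was left out, lbp-1 ran from -0.02 to 0.41 with age in wild type and from -0.29 to 0.13 in daf-2, lbp-8 from -0.33 to 0.83 with age in daf-2, and lbp-3 from -0.38 to 0.00 with age in daf-2. Between genotypes at day 1, lbp-3 ran from -0.02 to 0.28, lbp-4 from -0.11 to 0.00, lbp-5 from -0.41 to 0.09 and lbp-9 from -0.18 to 0.06. The interaction of lbp-4 ran from -0.13 to 0.02.

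With a replicate block over the 12 libraries, 6 lbp genes were called with age in wild type, 5 in daf-2 and 2 in each of the other comparisons, with no call of a member changed. Outside genotype at day 9, same-numbered libraries did not deviate together in every pair (correlations of -0.31 to 0.34). For genotype at day 1 the correlations were 0.23, 0.34 and -0.02, and no paired fit of the day 1 libraries alone was run. Of the 12 libraries, 8 correlated best with one of their own number, so shared handling of same-numbered libraries was not excluded. Depth limits lbp-8, with 0 to 60 counts per library.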
